A study of Mus musculus with 12 samples.

Results

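The 32 genes described here encode the machinery that copies DNA in S phase and the factors that bring a cell into it. They comprise the licensing factors Cdc6 and Cdt1, the 6 subunits of the MCM helicase, Cdc45 and the 4 GINS subunits, 4 polymerase subunits, the sliding clamp Pcna with the 5 subunits of its loader, 5 enzymes of nucleotide and uracil metabolism, and 4 regulators of the G1 to S step. They were taken by name and not by a cutoff on a measured value, although the list was chosen with earlier results of these data known. Every probe set whose only annotated gene symbol is a member was found, and the one with the highest mean of all 12 arrays stood for the gene. All 32 were on the array, out of 18193 genes with a probe set of their own, and all 32 were among the 13500 genes that passed the filter on low values.

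RNA of whole mouse embryos at E10.5 was hybridised to Affymetrix arrays, with 3 embryo samples for each of 4 genotypes: wt, the unmutated control; acd, homozygous for the acd allele (Acdacd/acd); p53, null for p53 (p53-/-); and double, which combines the Acdacd/acd and p53-/- genotypes. Acd encodes TPP1, a subunit of the shelterin complex that caps telomeres and recruits telomerase, and the acd allele is a spontaneous splice-site mutation that leaves little normal protein. p53 is a transcription factor that responds to DNA damage by arresting the cell cycle or triggering apoptosis. The question set by the design is which parts of the acd expression profile need p53, so the acd samples were compared with wt and the double mutants with p53 mutants. The labels used here name no strain, litter, p53 allele construct or hybridisation batch, and 250 ng of total RNA was labelled for each sample. The replicates are labelled biological, without saying whether embryos were pooled or shared a litter.

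As background, replication is set up in G1 and carried out in S phase. Cdc6 and Cdt1 load the MCM ring, composed of Mcm2 to Mcm7, onto origins, and Cdc45 and GINS then turn the loaded ring into an active helicase. Primase and polymerase alpha begin each strand, polymerases delta and epsilon extend it, and Rfc places the Pcna clamp that holds them on DNA. Most of these genes are targets of E2F transcription factors and peak late in G1 or in S phase, and p53 can silence them through p21 (Cdkn1a). In a growing embryo, where most cells cycle, their transcripts are abundant. In an RNA sample of a whole embryo, fewer cycling cells and less transcript per cell cannot be told apart.

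The values are log2 RMA intensities, so a difference of 1 is a doubling of the fluorescence signal. Array medians ran from 5.325 to 5.401. Acd itself measured 8.999, 8.995 and 8.988 in wt, 8.84, 8.85 and 9.05 in p53, 8.27, 8.31 and 8.22 in acd, and 8.44, 8.42 and 8.24 in the double mutants, so the 6 samples carrying acd lay below the other 6. The double mutants were the most variable genotype. The median SD over the 13500 tested genes was 0.21 in this genotype, against 0.06 in wt, 0.07 in acd and 0.10 in p53. Transcripts of the Y chromosome appeared in all 3 acd and all 3 p53 arrays but in 1 of 3 wt and 1 of 3 double mutant arrays. Double mutant replicates 1 and 2 stood apart from all other arrays. The 7 interferon response genes that passed the filter, of 13 listed, averaged 3.52 and 2.99 above the wt mean there, against 0.16 in double replicate 3. Their 18 spike-in control probe sets, which report RNA added in fixed amount, averaged 0.47 and 0.35 above wt, while the other 10 arrays ranged from -0.05 to 0.18. The double mutant results are therefore given by array, and the counts of members with and without these samples.

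The map of all members by array shows 2 features. In wt, acd and p53 embryos the replication genes were steady: the median SD over 3 arrays of a genotype was 0.04 for wt and acd and 0.05 for p53. In the double mutants it was 0.23, and the SD of all 32 members exceeded 0.1, against 2 members in wt, 3 in acd and 4 in p53. The 3 double mutant samples differed from each other. The mean over the 32 members was -0.27 from the wt mean in replicate 1, -0.16 in replicate 2 and 0.03 in replicate 3. In replicate 1 the changes ran from -1.04 (Pole) to 0.48 (Gins2), with 22 members below the wt mean and 10 above. In replicate 2 they were smaller and nearly uniform in direction, from -0.39 (Rfc5) to 0.12 (Tyms). There 31 of 32 were below the wt mean, some barely (Rrm2 at -0.001), and 28 were below every wt array. In replicate 3 they lay between -0.12 and 0.22.

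**Figure D1:**
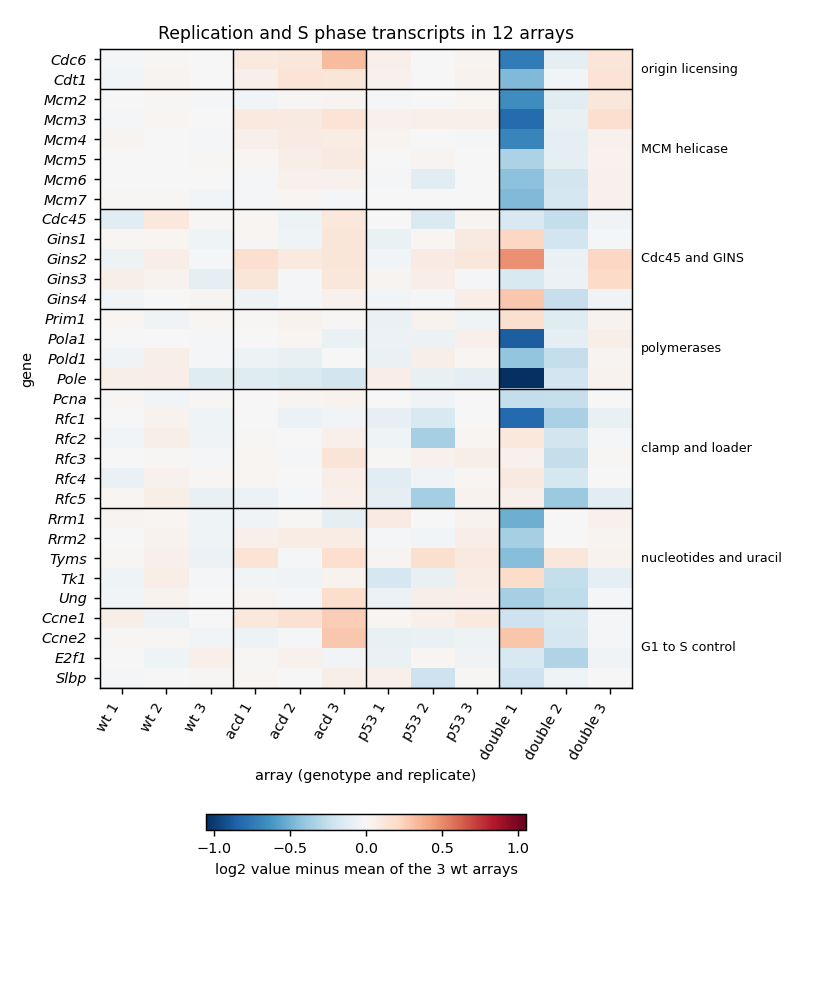
Log2 value minus the mean of the 3 wt arrays (colour; blue lower, red higher) for the 32 members (rows, by role) in the 12 arrays (columns). Double replicate 1 is dark blue for Pole, Pola1, Rfc1, Mcm2 to Mcm4 and Cdc6 and red for Gins2, Gins4 and Ccne2. Double replicate 2 is below the wt mean for 31 of 32 genes, from near white (Rrm2 at -0.001) to pale blue.

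By the probe sets used, the licensing factors and the MCM ring were lowest in double replicate 1 and, by a smaller margin, below every wt array in double replicate 2. Cdc6, which recruits Cdt1 and MCM to origins, measured 9.91, 9.93 and 9.92 in wt, 9.98, 9.92 and 9.95 in p53, 10.02, 10.04 and 10.25 in acd, and 9.19, 9.82 and 10.04 in the double mutants. The acd samples all lay above wt, and the double mutants spanned from the lowest value of the series to one above every wt and p53 sample. Cdt1, the loader that delivers MCM, stood at -0.46 from the wt mean in double replicate 1, against -0.03 and 0.15 in replicates 2 and 3. The 6 MCM subunits averaged -0.56 in double replicate 1, -0.13 in replicate 2 and 0.08 in replicate 3. All 6 were below the wt mean in replicates 1 and 2 by the probe sets used, but another Mcm4 probe set stood at 0.16 in replicate 2.

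By the probe sets used, the subunits ranged in replicate 1 as follows. Mcm3 stood at -0.80, Mcm4 at -0.70, Mcm2 at -0.65, Mcm7 at -0.47, Mcm6 at -0.43 and Mcm5 at -0.33. Another probe set of Mcm5 stood at -0.65, so probe sets of 1 gene differed about as much as the subunits did, and no order of subunits is read from these values. Mcm4, a subunit of the catalytic core, measured 12.05, 12.02 and 12.001 in wt, 12.08, 12.11 and 12.10 in acd, 12.05, 12.02 and 12.01 in p53, and 11.33, 11.92 and 12.07 in the double mutants. Every acd sample was above every wt sample by a small margin, and double replicate 1 lay far below the other 11. Mcm7, also of the core, measured 13.07, 13.07 and 13.03 in wt, 13.04, 13.08 and 13.05 in acd, 13.06, 13.06 and 13.06 in p53, and 12.59, 12.87 and 13.10 in the double mutants. Its SD was 0.26 in the double mutants and 0.02 in wt (n = 3 each), and double replicates 1 and 2 lay below the other 10 arrays.

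E2F factors bind short GC-rich words near the start of many replication genes, so the promoters were searched for 4 such words: TTTCCCGC, TTTCGCGC, TTTGCCGC and TTTGGCGC, on either strand. RefSeq windows of 300 bases on GRCm38.p6, from 250 bases before the transcript start to 50 after it, matched 25 of the 32 members by symbol. A word was found in 10 of the 25 (40%), against 4.53% of the 10836 tested genes with a window and 2.6% of all 27025 genes that have a window. The 10 were Mcm3, Mcm5, Mcm6, Mcm7, Rfc3, Pold1, Gins3, Cdt1, Cdc6 and Pola1. With the related word TTCCCGCC, which shares 7 of its letters with TTTCCCGC, the share was 5 of 25 (20%) against 4.51% of tested genes. A match is a description of the letters and not a bound site. Windows of Pold1, Mcm7 and Mcm5 are shown because, of the members with a match, these were the ones with the smallest p in the comparison of double with p53 embryos. All are printed 5′ to 3′ on the gene's own strand, with the matched words in capitals. Pold1 lies at chr7:44548766-44549065 on the minus strand, Mcm7 at chr5:138171834-138172133 on the minus strand and Mcm5 at chr8:75109259-75109558 on the plus strand.
Pold1: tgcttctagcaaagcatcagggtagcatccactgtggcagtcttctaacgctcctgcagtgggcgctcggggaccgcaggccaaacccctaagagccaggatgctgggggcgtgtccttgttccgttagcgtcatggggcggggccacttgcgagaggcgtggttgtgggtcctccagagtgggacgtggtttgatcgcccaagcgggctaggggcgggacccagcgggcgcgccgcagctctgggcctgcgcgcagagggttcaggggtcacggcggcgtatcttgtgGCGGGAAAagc
Mcm7: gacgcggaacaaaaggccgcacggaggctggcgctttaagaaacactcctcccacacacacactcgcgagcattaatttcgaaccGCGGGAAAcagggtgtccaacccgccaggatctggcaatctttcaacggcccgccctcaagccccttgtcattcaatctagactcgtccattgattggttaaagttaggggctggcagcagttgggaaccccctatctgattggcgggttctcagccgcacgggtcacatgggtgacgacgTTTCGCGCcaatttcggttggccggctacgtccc
Mcm5: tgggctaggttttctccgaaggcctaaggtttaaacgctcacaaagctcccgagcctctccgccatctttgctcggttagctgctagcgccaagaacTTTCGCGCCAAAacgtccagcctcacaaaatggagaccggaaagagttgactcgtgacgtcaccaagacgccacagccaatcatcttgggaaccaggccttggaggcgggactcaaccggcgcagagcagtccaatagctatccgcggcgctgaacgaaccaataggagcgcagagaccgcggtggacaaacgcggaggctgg
The Pold1 word is the reverse complement of TTTCCCGC and lies just after the start. Mcm7 has 1 word before the start and 1 after it. In Mcm5 the capitals hold 2 words that overlap, TTTCGCGC and GCGCCAAA, the latter the reverse complement of TTTGGCGC. Of the 10 genes with a word, 9 were below the wt mean in double replicate 1 (median -0.45) and all 10 in double replicate 2 (median -0.10). Of the 15 genes whose window held none, 11 were below it in replicate 1 (median -0.22) and 14 in replicate 2 (median -0.18). The genes with a word thus had the lower median in replicate 1 and the higher in replicate 2.

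The partners that activate the ring behaved otherwise in double replicate 1. There Gins2 stood at 0.48, Gins4 at 0.28 and Gins1 at 0.22 above the wt mean, while Gins3 and Cdc45 stood at -0.16 and -0.16. Gins2 measured 9.77, 9.89 and 9.81 in wt, 9.997, 9.93 and 9.96 in acd, 9.80, 9.91 and 9.94 in p53, and 10.31, 9.76 and 10.05 in the double mutants. By the probe set used, its acd samples were all above wt, and its double mutant samples included both the highest and the lowest value of the series. By the probe sets used, all 5 genes of the group were below the wt mean in double replicate 2, with a mean of -0.16. In replicate 1, 3 of the 4 GINS transcripts thus lay on the other side of wt from all 6 MCM transcripts, and Gins3 on the same side. In replicate 2 all 4 lay on the same side as MCM by the probe sets used. There another Gins2 probe set stood at 0.06 and another Mcm4 probe set at 0.16.

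Among the polymerases, the catalytic subunits were low in double replicate 1 and the primase was not. Pole, the leading-strand polymerase epsilon, measured 9.27, 9.28 and 9.084 in wt, 9.082, 9.06 and 9.02 in acd, 9.28, 9.13 and 9.12 in p53, and 8.17, 9.01 and 9.25 in the double mutants. Its acd samples were all below wt, the nearest by a hair, and the lowest value by far was that of double replicate 1. Pola1, the catalytic subunit of polymerase alpha, stood at -0.86 from the wt mean there, -0.10 in replicate 2 and 0.06 in replicate 3. Pold1, the catalytic subunit of lagging-strand polymerase delta, measured 10.12, 10.23 and 10.14 in wt, 10.11, 10.09 and 10.17 in acd, 10.10, 10.22 and 10.19 in p53, and 9.75, 9.91 and 10.19 in the double mutants. Double replicates 1 and 2 were its lowest arrays, and replicate 3 lay within the wt range. Prim1, the primase that works with Pola1, stood at 0.17 and -0.12 in replicates 1 and 2.

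Pcna, the sliding clamp, measured 13.50, 13.46 and 13.49 in wt, 13.47, 13.51 and 13.52 in acd, 13.49, 13.44 and 13.49 in p53, and 13.23, 13.24 and 13.49 in the double mutants. Double replicates 1 and 2 were about equally low, and replicate 3 was like wt. Of the clamp loader, the large subunit Rfc1 was low in double replicate 1 and the 4 small ones were not. By the probe set used, Rfc1 measured 10.11, 10.13 and 10.06 in wt, 10.10, 10.04 and 10.07 in acd, 10.01, 9.94 and 10.10 in p53, and 9.29, 9.76 and 10.02 in the double mutants, all 3 of them below every wt sample. Its other probe sets stood at -0.62 and -0.83 from wt in double replicate 1, and at -0.22 and 0.14 in replicate 2. By neither of these did all double mutant samples lie below every wt sample. The small subunits Rfc2 to Rfc5 stood between 0.04 and 0.11 in replicate 1 and between -0.39 and -0.18 in replicate 2. Rfc2 and Rfc5 were also low in a single p53 sample, replicate 2, at -0.35 and -0.36. The other Rfc2 probe sets did not share the low value, at 0.003 and -0.045 in that array. Rfc2 measured 10.72, 10.81 and 10.72 in wt, 10.76, 10.75 and 10.80 in acd, 10.71, 10.40 and 10.77 in p53, and 10.86, 10.55 and 10.74 in the double mutants.

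The enzymes that supply nucleotides lay on both sides of wt in double replicate 1. Rrm1, the large subunit of ribonucleotide reductase, measured 11.65, 11.65 and 11.58 in wt, 11.59, 11.64 and 11.53 in acd, 11.71, 11.62 and 11.67 in p53, and 11.12, 11.62 and 11.67 in the double mutants. Only double replicate 1 lay outside the range of the others. Its partner Rrm2 stood at -0.35 there, and Tyms, thymidylate synthase, at -0.44, whereas Tk1, thymidine kinase, stood at 0.20. The Tyms probe set was dim, with a mean of 6.07, close to the array medians. Ung, the glycosylase that removes uracil from DNA, measured 9.30, 9.37 and 9.33 in wt, 9.36, 9.31 and 9.51 in acd, 9.27, 9.397 and 9.399 in p53, and 8.99, 9.07 and 9.31 in the double mutants. Double replicates 1 and 2 were its lowest arrays.

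Among the regulators, Ccne1, the cyclin E1 that drives Cdk2 at the G1 to S step, is the member with the smallest p in the comparison of acd with wt. It measured 10.69, 10.57 and 10.62 in wt, 10.74, 10.79 and 10.88 in acd, 10.65, 10.68 and 10.73 in p53, and 10.42, 10.47 and 10.62 in the double mutants. The acd samples lay above every wt and p53 sample, and the double mutants lay below every acd and p53 sample and overlapped wt. By the other Ccne1 probe set the double mutants overlapped acd and p53 as well. Ccne2, the other cyclin E, stood at 0.29 in double replicate 1, -0.17 in replicate 2 and -0.02 in replicate 3, and at 0.29 in acd replicate 3. E2f1, the activating E2F factor, measured 8.15, 8.12 and 8.21 in wt, 8.17, 8.20 and 8.13 in acd, 8.09, 8.18 and 8.12 in p53, and 7.995, 7.85 and 8.12 in the double mutants. Slbp, which binds the end of histone mRNA, stood at -0.22, -0.05 and 0.001.

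**Figure D2:**
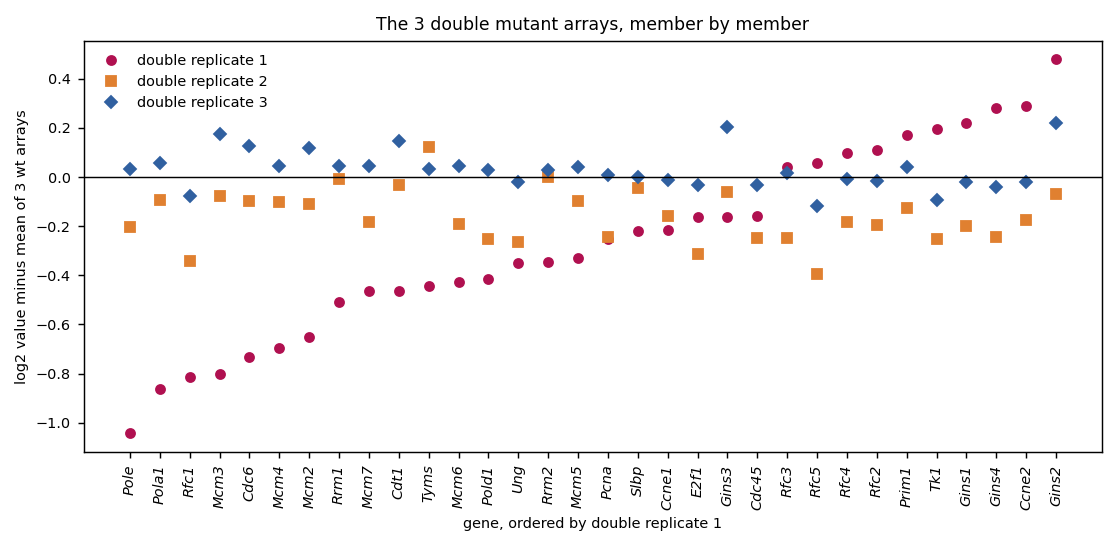
Log2 value minus the mean of the 3 wt arrays in each double mutant array, for the 32 members ordered by double replicate 1. Replicate 1 (circles) runs from -1.04 for Pole to 0.48 for Gins2, replicate 2 (squares) is below 0 for 31 of 32 genes, and replicate 3 (diamonds) stays near 0.

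The wide spread of double replicate 1 was shared by all genes. In that array 8 members (Pole, Pola1, Rfc1, Mcm3, Cdc6, Mcm4, Mcm2 and Rrm1) were more than 0.5 below the wt mean, and 0 were more than 0.5 above it. Over all tested genes 12.2% were that far below and 10.9% that far above. Just outside the threshold were Gins2 at 0.48 above, and 5 members below: Mcm7 at -0.47, Cdt1 at -0.46, Tyms at -0.44, Mcm6 at -0.43 and Pold1 at -0.42. Just inside it was Rrm1 at -0.51. Double replicate 1 was the lowest of the 12 arrays for 20 members and double replicate 2 for 11, against 30.4% and 14.9% of all genes. Double replicate 1 was the highest array for 8 members, against 32.6% of all genes, and acd replicate 3 for 11, against 9.46%. In double replicate 2, 31 of 32 members were below the wt mean, against 53.4% of all genes.

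Between acd and wt embryos the replication genes were nearly level. The median difference over the 32 members was 0.03, beside -0.01 over all tested genes, with 23 members higher and 9 lower. By limma 0 members passed an adjusted p of 0.05, against 0.0148% of all genes, and 1 member, Ccne1, had an unadjusted p under 0.05, against 1.77% of all genes (239). The fit shares 1 spread per gene among the 4 genotypes, so the variable double mutants widen the SE here. Mcm3 was 0.11 higher in acd with an SE of 0.18, while its SD was 0.019 in wt and 0.026 in acd. The absence of calls therefore does not show that small differences are absent. Ccne1 was 0.18 ± 0.08 higher in acd (SE; limma, adjusted p = 1). In 8 members (Ccne1, Cdc6, Cdt1, Gins2, Mcm3, Mcm4, Mcm5 and Rrm2) all 3 acd samples lay above all 3 wt samples, against 7.24% of all genes, and in Pole all lay below, against 9.85%. These counts are by the probe sets used. By another Mcm3 probe set, dim at a mean of 6.225, acd was -0.0175 from wt, while by the remaining Mcm3 probe sets acd was higher on average. With a term for the Y-linked transcripts, present in 1 wt and all 3 acd samples, the median was 0.12 and no member was called. Cdkn1a, the p53 target p21 that restrains entry into S phase, measured 8.09, 8.09 and 8.04 in wt and 8.02, 8.83 and 8.99 in acd (difference 0.54 ± 0.19, SE; limma, adjusted p = 1). Acd replicate 1 thus lacked the higher Cdkn1a of replicates 2 and 3, and Ccng1, another p53 target, was 8.34 there against 10.16 and 10.34. That value lay below the wt arrays (8.75 to 9.26) and within the range of the p53 mutants (8.32 to 8.54), so acd replicate 1 stands apart from the other acd samples, although its Acd level was as low as theirs. Without it, 26 members were higher and 6 lower than wt, with a median of 0.04 and 0 called, and Ccne1 was 0.21 higher. The replication genes did not follow that split, with member means of 0.02, 0.02 and 0.07 from wt in acd replicates 1, 2 and 3.

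Between p53 and wt embryos the median member difference was 0.0034, beside -0.0035 over all genes, with 17 members higher and 15 lower. By limma 0 members passed an adjusted p of 0.05, and 0% of all genes did. At an unadjusted p of 0.05 the counts were 0 members and 0.719% of all genes. The SE of this comparison is likewise widened by the spread of the double mutants. The smallest p belonged to Rfc2, which was -0.12 ± 0.11 from wt (SE; limma, adjusted p = 1), with the low value of p53 replicate 2 described above. With all probe sets of a gene averaged it was -0.06. That array also had the visceral endoderm and liver list 1.08 above wt.

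In the double mutants compared with p53 mutants, 26 members were lower and 6 higher, with a median of -0.14 beside -0.01 over all genes. By limma 0 members passed an adjusted p of 0.05, against 0.00741% of all genes. At an unadjusted p of 0.05 there were 3 members, all lower, against 10.7% of all genes in either direction, a share near the background. They were Ung (-0.23 ± 0.09, SE), Ccne1 (-0.19 ± 0.08) and Rfc1 (-0.33 ± 0.14), each with a limma adjusted p of 0.463. The other 7 of the 10 members with the smallest p were Pold1 (-0.22), Pcna (-0.16), Mcm7 (-0.21), E2f1 (-0.14), Pole (-0.37), Mcm4 (-0.25) and Rrm1 (-0.20), with adjusted p between 0.466 and 0.504. Ccne1 was the 1 member whose double mutant samples all lay below the p53 samples, against 5.01% of all genes. By its other probe set the difference was -0.16 ± 0.12 (SE) and the samples overlapped.

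**Figure D3:**
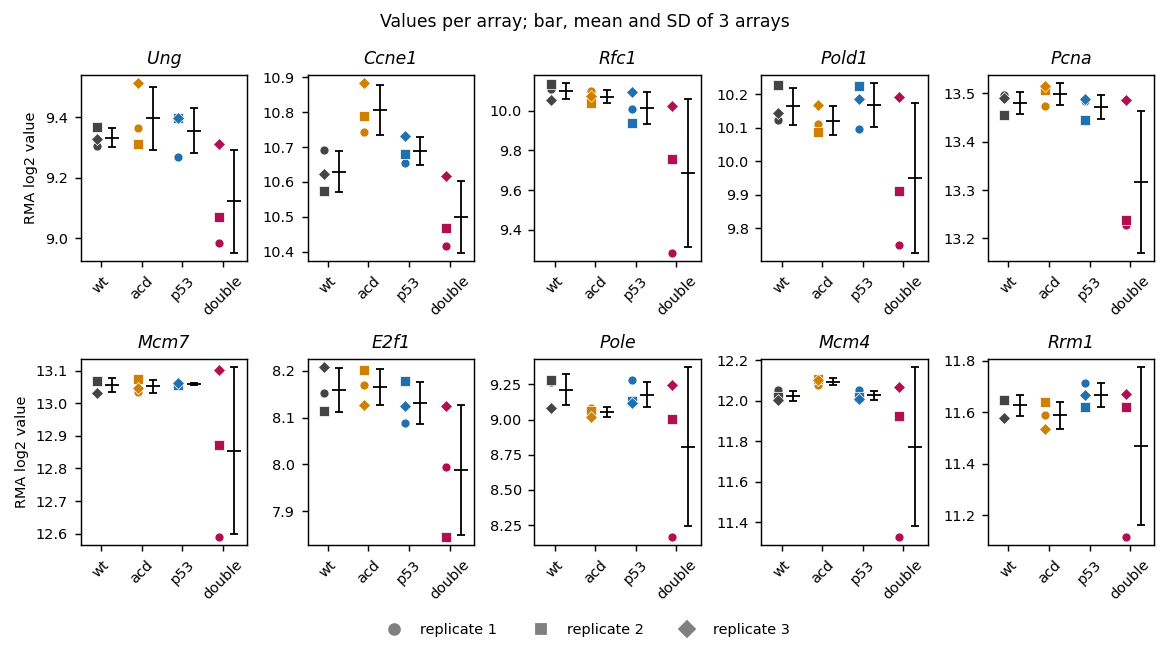
RMA log2 value of each array by genotype for the 10 members with the smallest p in double against p53; the bar beside each group is its mean and SD (n = 3), and each panel has its own axis. In Pcna, double replicates 1 and 2 sit together below all other arrays, whereas in Pole, Mcm4 and Rrm1 replicate 1 alone is far below.

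The outcome depended on the third double mutant sample. Without double replicate 3, limma called 5 members lower than in p53: Rfc1 (-0.49, adjusted p = 0.023), Pold1 (-0.34, 0.0234), Ung (-0.33, 0.0304), Mcm7 (-0.33, 0.0315) and Pcna (-0.24, 0.039). All genes were called at a similar rate, 13.0%, in that fit. Without double replicate 1 the median was -0.04, with 24 members lower. With double replicate 3 alone set against p53, 24 members were higher and 8 lower, with a median of 0.03 and 0 calls. In that fit the single sample is assumed to vary like the other genotypes.

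Against acd embryos, 29 members of the double mutants were lower and 3 higher, with a median of -0.18 beside -0.01 over all genes. By limma 0 members and 0% of all genes passed an adjusted p of 0.05. At an unadjusted p of 0.05 there were 7 members, all lower, against 12.6% of all genes in either direction. They were Ccne1, Ung, Rfc1, Cdc6, Pcna, E2f1 and Mcm4. Ccne1 had the smallest p (-0.31 ± 0.08, SE; limma, adjusted p = 0.371), and Cdc6 the largest difference (-0.42 ± 0.17; limma, adjusted p = 0.378). In 6 members (Ccne1, E2f1, Mcm4, Rfc1, Rrm2 and Slbp) every double mutant sample lay below every acd sample, against 6.90% of all genes. That is by the probe sets used, and by other probe sets of Ccne1, Rfc1 and Slbp the samples overlapped. The other Slbp probe set was dim, with a mean of 6.55. Without double replicate 3, 11 members were called lower (Cdc6, Mcm3 to Mcm7, Pold1, Pcna, Rfc1, Ung and Ccne1) beside 13.9% of all genes. With arrays weighted by their own spread, 7 were called lower (Ccne1, E2f1, Pcna, Rfc1, Rfc3, Rfc5 and Ung) beside 13.2% of all genes. Double replicates 1, 2 and 3 had weights of 0.068, 1.607 and 0.246, so these calls rest mostly on replicate 2. Without double replicates 1 and 2, 20 members were lower and 12 higher, with a median of -0.03. The acd and p53 comparisons share the double mutant samples, so they do not stand as separate evidence.

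Against wt, 29 members of the double mutants were lower and 3 higher, with a median of -0.14. By limma 0 passed an adjusted p of 0.05, against 0.0148% of all genes, and 2, Rfc1 and Ung, had an unadjusted p under 0.05, against 11.1%. Rfc1 was -0.41 ± 0.14 from wt (SE; limma, adjusted p = 0.447). By other Rfc1 probe sets the difference was -0.26 and -0.12. Without double replicate 3, 7 members were called lower (Mcm6, Mcm7, Pold1, Pole, Pcna, Rfc1 and Ung) beside 12.2% of all genes, and with array weights 5 (E2f1, Pcna, Pold1, Rfc1 and Rfc5) beside 13.4%. The weighted calls again rested mostly on double replicate 2. Without double replicates 1 and 2, 20 members were higher and 12 lower, with a median of 0.03. Whether the effect of acd differed with and without p53 was tested as the interaction, the difference of double minus p53 less that of acd minus wt. It was below 0 for 27 members and above 0 for 5, with a median of -0.17 beside -0.01 over all genes. By limma 0 members and 0% of all genes passed an adjusted p of 0.05. At an unadjusted p of 0.05 there were 2 members, Ccne1 (-0.36 ± 0.11, SE) and Ung (-0.30 ± 0.13), each with an adjusted p of 0.879, against 3.93% of all genes. With double replicate 3 alone for the double mutants the median interaction was 0.01.

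Another reading of each gene came from its other probe sets. Of the members, 23 had between them 32 other probe sets above the filter. In double replicate 1, 31 of the 32 stood on the same side of the wt mean as the probe set used, the exception being a probe set of Rfc2. In double replicate 2, 28 of 32 did, the exceptions being a probe set each of Gins2, Mcm4, Rfc1 and Tyms. The 3 other Mcm7 probe sets stood at -0.63, -0.64 and -0.61 in replicate 1, beside -0.47 for the probe set used, and the other Gins2 probe set stood at 0.64 beside 0.48. Probe sets of a gene disagreed in p53 replicate 2, where another Rrm1 probe set stood at -1.06, another Rrm2 at -0.76 and another Mcm3 at -0.72, with those used at -0.01, -0.03 and 0.05. For the Rrm1 difference between double and p53, the other probe set gave 0.10 in place of -0.20.

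**Figure D4:**
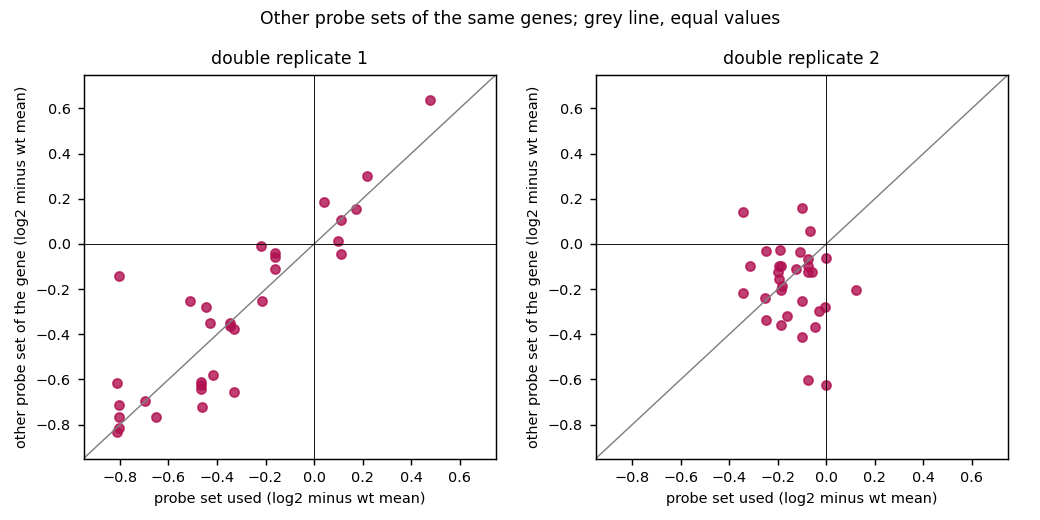
Log2 value minus the wt mean of the 32 other probe sets (vertical axis) against the probe set used for the same gene (horizontal axis) in double replicates 1 and 2, with the line of equal values in grey. In replicate 1, 31 of 32 points lie in the quadrants of equal sign, spread along the line, and in replicate 2, 28 of 32 do, within a narrower range.

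Genes of DNA replication outside the members were read in the same fit. Of 58 such genes, among them origin recognition subunits, RPA and replication checkpoint factors, 56 were tested, and 41 were lower and 15 higher in double than in p53, with a median of -0.14. By limma 0 were called, and 5 of the 56, all lower, had an unadjusted p under 0.05, against 10.7% of all genes in either direction. The smallest p belonged to Orc2, of the origin recognition complex (-0.27), Wdhd1, which links helicase to polymerase alpha (-0.31), Chtf18, of an alternative clamp loader (-0.37), and Recql4, a helicase of replication initiation (-0.32), each with an adjusted p of 0.463. In double replicates 1, 2 and 3, Orc2 stood at -0.34, -0.36 and -0.03 from wt, and Wdhd1 at -0.60, -0.46 and -0.09. Chtf18 stood at -0.69, -0.41 and -0.03, and Recql4 at -0.40, -0.61 and 0.02. Without double replicates 1 and 2, a check added after seeing the data, 35 of the 56 were higher and 21 lower than in p53, with a median of 0.02 and 0 calls. Against acd 45 of 56 were lower, with a median of -0.15. Their mean stood at -0.24, -0.16 and 0.01 from wt in double replicates 1, 2 and 3, the same order as the members. Of 19 genes of G2 and mitosis, 15 were lower in double than in p53, with a median of -0.17 and 0 calls, among them Aurkb (-0.26) and Cdc20 (-0.26), which act in chromosome segregation and mitotic exit. That list stood at -0.39, -0.09 and 0.07 in the 3 double mutant arrays. Without double replicates 1 and 2, 15 of the 19 were higher and 4 lower than in p53, with a median of 0.08.

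Transcripts of macrophages and of visceral endoderm and liver were higher in the same 2 arrays, and those of other cell types were less uniform. In double replicates 1, 2 and 3, the mean of 12 tested macrophage genes stood at 1.37, 0.93 and -0.19 from wt, with all 12 and 11 of 12 above every wt array in replicates 1 and 2. Their mean level was 5.83 to 5.99 in the wt arrays, near the array medians, and 7.26, 6.83 and 5.71 in the double mutants. The 10 visceral endoderm and liver genes stood at 1.59, 1.31 and 0.28, the 10 primitive erythroid genes at 0.66, 0.26 and -0.45, and the 15 genes of differentiating neurons at 0.29, 0.60 and -0.11. The liver list was also high in p53 replicate 2, at 1.08. The erythroid list ran from -0.21 to 0.26 in the wt arrays and stood at 0.55 in acd replicate 2. Of the 15 neuron genes, 6 were below the wt mean in double replicate 1. The 10 neural progenitor genes stood at -0.22, 0.02 and 0.01. The gap between 3′ and 5′ actin control probe sets was 0.48 and 0.39 in double replicates 1 and 2, within the 0.37 to 0.51 of the other 10 arrays. The same gap of Gapdh was 0.005 and 0.162, against 0.043 to 0.2, so replicate 1 had the smallest. The part of cell makeup, of the interferon response and of the higher spike-in signal in the low replication transcripts was not tested. A list of brakes on S phase entry, with the D cyclins included, had 10 tested genes. Of these, 7 were higher and 3 lower in double than in p53, with a median of 0.05 and 0 calls. Among them, Cdkn1a measured 8.06, 8.07 and 8.06 in the double mutants, within the wt range. Rbl2, a pocket protein that binds E2F, was 0.29 higher than in p53 (limma, adjusted p = 0.463), and 0.04 higher without double replicates 1 and 2. Its probe set was dim, with means of 5.83 in p53 and 6.12 in double.

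**Figure D5:**
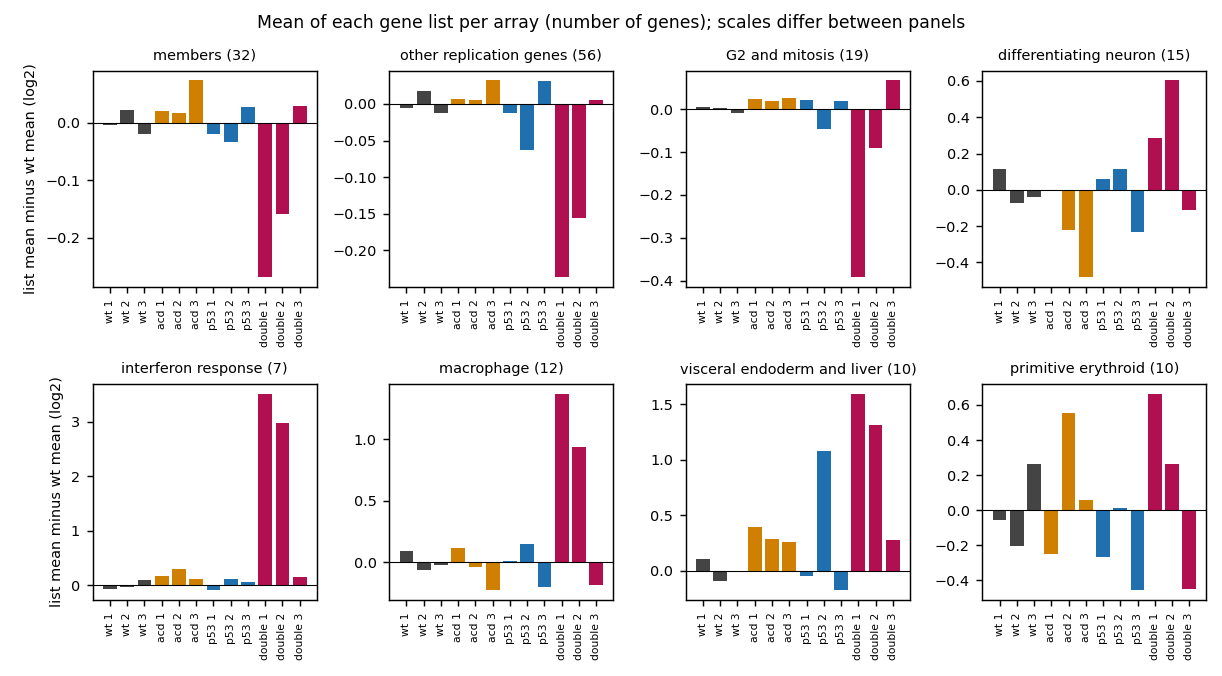
Mean of each gene list in each array, as log2 difference from the mean of the 3 wt arrays; the number of tested genes is in brackets and the scale differs between panels. The members and the other replication genes are lowest in double replicates 1 and 2, the same arrays in which the interferon (3.52 and 2.99) and macrophage (1.37 and 0.93) lists are highest, while double replicate 3 lies between -0.19 and 0.16 in these 4 panels.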

How the data were processed

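Expression was measured on Affymetrix 3′ arrays in 12 whole-embryo RNA samples, 3 for each of 4 genotypes. The authors deposited log2 values normalized together by RMA (justRMA on CEL files), per the labels and the series' design text. Depth does not apply to arrays, and their number limits the precision.

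Of 45101 probe sets, 64 are controls, 34945 have a single gene symbol and 932 have several, which named no gene. Gene identifiers of 34741 probe sets matched RefSeq (GRCm38.p6), which changed 0 symbols. The probe set with the highest mean stood for a gene, and 13500 of 18193 genes above the array's 40th percentile in at least 3 arrays were tested. limma 3.58.1 (R 4.3.3) fitted a mean per genotype over all 12 arrays (8 residual degrees of freedom), two-sided, with Benjamini-Hochberg adjustment over all tested genes at 0.05. The fit was tested on simulated data with the same spread in every genotype, so that test does not cover the unequal spread found here. p-values measure the spread between these samples, which the labels call biological replicates.

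The members, gene lists and named genes were chosen with earlier results of these data known. All members could be named, with values per array for the 10 with the smallest p in double against p53 and the member with the smallest p in each other comparison. From other lists, up to 4 genes with the smallest p could be named. Cdc6, Gins2 and Ccng1 are given per array outside that rule, chosen after their values were seen. Promoters came from the RefSeq table. Replicate numbers were not treated as pairs in the main fit. Alternatives covered the filter, probe set choice, centring, normalization, variance model, array weights, sex, a replicate block and left-out arrays. The transcript of the p53 gene is not reported here.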

Additional observations from a re-analysis of the deposited data

How the results depend on the processing

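With 3 arrays a genotype, the spread among the double mutants limits what can be called. Counts of members called were 0 in all 6 comparisons. They ranged from 0 to 5 in double against p53, 0 to 11 in double against acd and 0 to 7 in double against wt when single arrays were left out, the highest each time without double replicate 3. With array weights, where double replicate 2 carried most of the weight of its genotype, they were 7 in double against acd and 5 in double against wt. The median member difference in double against p53 ranged from -0.2315 to -0.0356 when single arrays were left out, and that of the interaction from -0.259 to -0.0996. Without double replicates 1 and 2, medians were 0.0316 against p53, -0.0298 against acd, 0.0294 against wt and 0.0056 for the interaction, and in double against p53 the difference was 0.0085 for Rfc1, 0.0241 for Pold1, 0.0146 for Pcna, 0.0414 for Mcm7, 0.0684 for Pole, 0.0415 for Mcm4 and 0.004 for Rrm1. Rrm1 was 0.1048 by its other probe set. With a term for sex, medians were 0.1235 in acd against wt, -0.2869 in double against acd and -0.3961 for the interaction. The cause was not tested for any of these shifts, beyond the smaller number of samples where arrays were left out.

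Of 359 values of named members under alternatives, 342 kept their direction and side of the threshold, 9 passed the threshold and 8 changed sign. The median in p53 against wt, near 0, changed sign in 4 of 22 alternatives. Deviations of same-numbered samples correlated over 0.1 in 7 of 18 pairs (range -0.226 to 0.395). Samples with different numbers were not compared in this way, so whether the numbers pair the samples is not settled. With the replicate number as a block, 0 members were called in double against p53. The median stayed at -0.1423, as it must, because every genotype has the same replicate numbers and a block cannot change the differences.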
